A study of Mus musculus with 12 samples.

Results

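The genes described here encode liver complement and coagulation proteins, together with a few of their receptors. Of 39 named genes, 34 had a probe set on the array whose annotation carried that gene alone, and each of the 34 had 1 such probe set. They are 34 of the 22180 genes represented in the table. Masp2 and Klkb1 shared a probe set with another gene, and no probe set is named here for C3, Cfd or Cpb2, so these 5 genes have no value. Probe sets were matched to the list by name, and the list itself was drawn up with earlier results of these data known.

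RNA was taken from livers of male C57BL/6 mice, with 3 mice and 3 arrays in each of 4 groups. The groups were AHNAK KO mice fed a high fat diet (KO HFD), wild-type mice on that diet (WT HFD), AHNAK KO mice fed regular chow (KO chow) and wild-type mice fed chow (WT chow). AHNAK is a very large scaffold protein found at the cell membrane. The high fat diet had 60% fat and both diets were given for 8 weeks to weight-matched groups, all C57BL/6. The sources used here do not give the age of the mice, the allele, or whether the deletion was confined to some cells. Signals are log2 values, so a difference of 1 is a doubling. A gene was called changed where limma's adjusted p (Benjamini-Hochberg over all 22180 genes) was under 0.05. The numbers of mice limit the precision, and each p-value weighs a difference against the spread between mice within the groups.

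Complement is a cascade of plasma proteases that marks surfaces for removal. C1q opens the classical route, and the mannose-binding lectins open the lectin route with their proteases. All routes end in a pore, the membrane attack complex, built from C5b, C6, C7, C8 and C9. The C8 component has an alpha and a beta chain, which enter the pore, and a small gamma chain of the lipocalin family. The clotting cascade is a parallel chain of plasma proteases that ends with thrombin cutting fibrinogen to fibrin. Protein C and protein S restrain it, and plasmin, made from plasminogen, dissolves the clot. Hepatocytes make most of these proteins, whereas macrophages make C1q and properdin, and myeloid cells carry the receptors for C3a and C5a.

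The 4 genes with the largest called differences between KO and WT mice on HFD lie in 3 places in the genome. C8a and C8b are direct neighbours on chromosome 4, with no protein-coding gene between them in the RefSeq annotation, and they are read toward each other. C6 is on chromosome 15 and Mbl2 on chromosome 19. Their promoters are shown because these genes carry most of the differences described below. Each window runs from 250 bases before the transcript start to 50 bases after it and was taken from RefSeq on GRCm38.p6. The C6 window is chr15:4726960-4727259 on the plus strand, and the C8a window is chr4:104876349-104876648 on the minus strand. The C8b window is chr4:104766067-104766366 on the plus strand, and the Mbl2 window is chr19:30232678-30232977 on the plus strand. Capitals mark a match to TTCNNNGAA (a STAT palindrome), to ATCAAT (the core read by HNF6 and CUX2) or to GTTAAT (an HNF1 half-site), on either strand.
C6: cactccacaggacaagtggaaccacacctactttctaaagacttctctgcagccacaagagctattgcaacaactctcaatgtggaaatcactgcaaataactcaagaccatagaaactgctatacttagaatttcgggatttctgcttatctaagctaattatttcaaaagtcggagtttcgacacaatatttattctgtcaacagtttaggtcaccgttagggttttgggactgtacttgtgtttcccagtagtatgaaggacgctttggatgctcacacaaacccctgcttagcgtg
C8a: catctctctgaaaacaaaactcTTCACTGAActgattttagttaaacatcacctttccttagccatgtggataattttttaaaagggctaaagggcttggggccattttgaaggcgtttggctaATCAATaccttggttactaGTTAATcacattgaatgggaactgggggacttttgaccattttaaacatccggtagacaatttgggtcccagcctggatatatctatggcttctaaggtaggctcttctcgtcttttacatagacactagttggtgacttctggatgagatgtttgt
C8b: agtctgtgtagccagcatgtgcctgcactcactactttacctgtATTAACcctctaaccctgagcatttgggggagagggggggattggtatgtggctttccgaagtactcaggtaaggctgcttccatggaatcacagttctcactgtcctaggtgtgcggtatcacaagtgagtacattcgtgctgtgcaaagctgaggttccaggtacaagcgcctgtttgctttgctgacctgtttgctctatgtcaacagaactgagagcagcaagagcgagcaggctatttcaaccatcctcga
Mbl2: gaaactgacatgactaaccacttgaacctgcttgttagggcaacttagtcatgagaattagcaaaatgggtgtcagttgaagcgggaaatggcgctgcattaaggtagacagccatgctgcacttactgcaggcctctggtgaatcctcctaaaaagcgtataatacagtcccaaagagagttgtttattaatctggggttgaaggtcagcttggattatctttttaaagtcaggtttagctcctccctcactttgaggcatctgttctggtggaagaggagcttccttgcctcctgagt
The C8a window held 1 match to each motif, and these matches did not overlap each other. The C8b window held 1 match, ATTAAC, which is GTTAAT on the other strand. The windows of C6 and Mbl2 held none of the 3. Among the other listed genes, the HNF1 half-site was found in the windows of C4bp, Cfp, F2, F13b, Fga, Fgb and Proz. The STAT palindrome was found in those of F9, Fga, Fgb, Masp2 and Pros1, and the HNF6 and CUX2 core in those of F2, F9 and F12. Of these genes Pros1 was called on HFD, Masp2 had no value, and the rest were not called in any comparison. Among 32851 mouse promoters of the same length, TTCNNNGAA was found in 8.30%, ATCAAT in 7.54% and GTTAAT in 7.10%. Of the 39 genes, 31 had a window that was searched, with 1 chromosome left out of the search for these genes.

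The WT HFD arrays stood apart from the other 9. On the first principal component of all genes, which held 32.2% of the variance, they scored 30.0 to 32.3, against -18.5 to -3.95 for the rest. Markers of recruited macrophages (7 of 8 listed were measured) had a mean log2 signal of 6.75 to 7.23 in WT HFD arrays, against 6.02 to 6.25 in the other 9. The 6 markers of stellate cells and fibroblasts had means of 8.86 to 9.14 in WT HFD, against 8.22 to 8.53 elsewhere. Of the 6, 3 were called lower in KO than in WT mice on HFD (50%, against 6.62% of all genes). The 7 adipocyte markers had means of 7.0 to 7.36 in WT HFD, against 6.54 to 6.87 elsewhere, but did not all move the same way. Between KO and WT mice on HFD their differences ran from -2.76 to 0.29, with a median of -0.12. Of the 7, 1 was called higher and 2 lower in KO, against 3.89% and 6.62% of all genes. Their HFD minus chow differences in WT mice ran from -0.34 to 2.82, with a median of 0.13. The hepatocyte markers (6 of 8 measured) had means between 12.42 and 12.68 in all 12 arrays. Of the 6, 1 was called between KO and WT mice on HFD (16.7%, against 10.5% of all genes). It was Cps1, higher in KO by 0.36 ± 0.07. The part of cell content in the results below was not tested. Of 4 clock genes, Dbp and Arntl separated WT HFD from the rest: Dbp was at 9.95 to 10.33 in WT HFD and 8.27 to 9.31 elsewhere, and Arntl was at 7.66 to 8.04 in WT HFD and 8.10 to 9.68 elsewhere. Npas2 (7.21 to 7.46 in WT HFD) and Nr1d1 (10.28 to 10.52 in WT HFD) overlapped other groups. Nr1d1 separated KO HFD instead, at 10.62 to 10.91, against at most 10.54 in WT chow. Within KO mice, Dbp was at 8.47 to 9.31 on HFD and 8.28 to 8.40 on chow. The sources used here do not give the time of day of collection. KO against WT on HFD, HFD against chow in WT, and the interaction all use the WT HFD arrays, so their values for one gene are not independent. In whole liver, fewer cells of a type and less RNA per cell cannot be told apart.

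Between KO and WT mice on HFD, 5 of the 34 genes (14.7%) were called, where 10.5% of all genes were. Of these, 4 were higher in KO HFD livers (C6, C8a, C8b and Pros1) and 1 was lower (Mbl2), against 3.89% higher and 6.62% lower among all genes. The KO and WT arrays on HFD did not overlap for 15 of the 34 genes, and for 28.6% of all genes. The median difference over the 34 genes was -0.07, and the median absolute difference was 0.12, against 0.14 for all genes. On chow, 0 of the 34 genes were called by limma between KO and WT mice, where 0.00902% of all genes were, although 4 had an unadjusted p under 0.05. The arrays on chow did not overlap for 8 of the 34 genes, and for 13.2% of all genes. The interaction, which is the KO minus WT difference on HFD less the same difference on chow, was called for 5 of the 34 genes, against 3.53% of all genes. These were C6, C8a and C8b with a positive sign (1.43% of all genes) and Mbl2 and C5ar1 with a negative sign (2.10% of all genes).

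**Figure D1:**
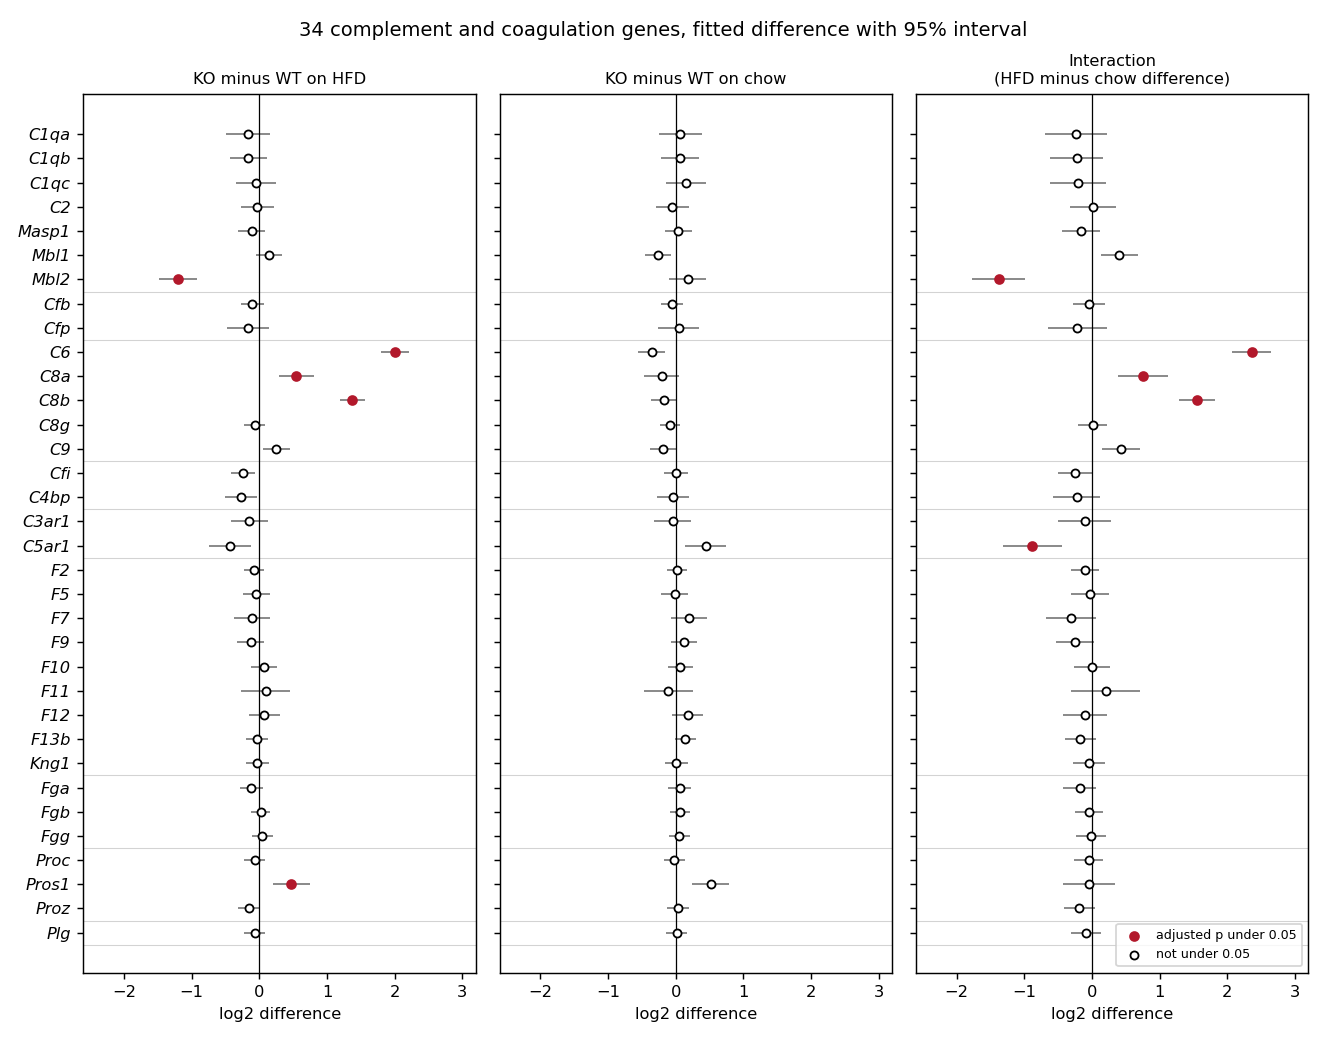
Log2 differences with 95% confidence intervals for the 34 genes, grouped by role, in 3 panels: KO minus WT on HFD, KO minus WT on chow, and the interaction; filled points were called. C6 (2.00), C8b (1.37) and Mbl2 (-1.20) lie far from 0 on HFD, while on HFD the clotting factors and fibrinogen chains lie between -0.13 and 0.09.

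The clearest differences were in the terminal pathway. Of its 5 genes, 3 were called in KO against WT mice on HFD (60%, against 10.5% of all genes). All 3 were higher, against 3.89% of all genes. C6 encodes the protein that binds C5b and starts pore assembly. Its log2 signal was 12.29, 12.28 and 12.33 in KO HFD livers and 10.44, 10.16 and 10.28 in WT HFD livers. It was 11.65, 11.69 and 11.63 in KO chow livers and 11.86, 12.09 and 12.08 in WT chow livers. The WT HFD arrays were the lowest of the 12 by more than 1 log2 unit, and KO HFD the highest. C6 was 4.01-fold higher in KO HFD than in WT HFD livers (log2 difference 2.00 ± 0.09, SE; adjusted p = 4.34e-07), the 20th largest rise of the 862 called. In WT mice it fell on HFD relative to chow (log2 difference -1.72 ± 0.09, adjusted p = 2.48e-06), which is 3.28-fold lower. In KO mice it rose on HFD (0.64 ± 0.09, adjusted p = 0.0118). That last call was lost with only the 6 arrays compared (adjusted p = 0.0502) and without KO HFD 3, KO chow 2 or KO chow 3, where the adjusted p reached 0.0676. On chow, the KO arrays all lay below the WT arrays (-0.36 ± 0.09, 95% interval -0.56 to -0.15), but the adjusted p was 0.408. The interaction was 2.36 ± 0.13 (adjusted p = 5.16e-06), the 12th largest of the 318 positive ones.

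C8b encodes the beta chain of C8, which attaches to the growing C5b-6-7 complex. Its log2 signal was 13.11, 13.11 and 12.94 in KO HFD livers and 11.70, 11.65 and 11.69 in WT HFD livers. It was 12.82, 12.83 and 12.63 in KO chow livers and 12.93, 12.90 and 12.98 in WT chow livers. Again the 3 WT HFD arrays were the lowest and did not overlap any other group. C8b rose 2.59-fold in KO relative to WT mice on HFD (1.37 ± 0.08, adjusted p = 2.22e-06), and in WT mice it fell on HFD relative to chow (-1.26 ± 0.08, adjusted p = 7e-06). The interaction was 1.55 ± 0.12 (adjusted p = 4.88e-05). In KO mice the difference between HFD and chow was 0.29 ± 0.08, with an adjusted p of 0.289.

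C8a encodes the alpha chain, which enters the membrane. Its log2 signal was 12.07, 11.99 and 12.16 in KO HFD livers and 11.64, 11.64 and 11.30 in WT HFD livers. It was 12.05, 11.74 and 11.75 in KO chow livers and 11.94, 12.14 and 12.08 in WT chow livers. The WT HFD arrays were again the lowest, by a smaller margin than for C8b. The difference between KO and WT mice on HFD was 0.55 ± 0.12 (adjusted p = 0.0113), which is 1.46-fold. In WT mice C8a fell on HFD (-0.53 ± 0.12, adjusted p = 0.0193), a call lost with only the 6 arrays compared (adjusted p = 0.0513) and without WT HFD 3, WT chow 2 or WT chow 3 (adjusted p up to 0.0741). Its interaction was 0.76 ± 0.17 (adjusted p = 0.0294). That call was lost without KO HFD 1 or 3, WT HFD 3, KO chow 2 or 3, or WT chow 2 or 3, with adjusted p up to 0.077.

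The other terminal genes were not called. C8g, the gamma chain, was at 12.70, 12.71 and 12.71 in KO HFD livers and 12.76, 12.80 and 12.77 in WT HFD livers, and its range over all 12 arrays was 0.18. The KO minus WT difference on HFD was -0.07, with a 95% interval of -0.22 to 0.08. C9, which polymerises into the pore, was at 12.39, 12.35 and 12.47 in KO HFD livers and 12.27, 12.08 and 12.12 in WT HFD livers. These groups did not overlap, but the difference of 0.25 ± 0.09 had an adjusted p of 0.103. It had an adjusted p of 0.0267 with the trend and robust settings and 0.0397 with only genes above the median signal.

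**Figure D2:**
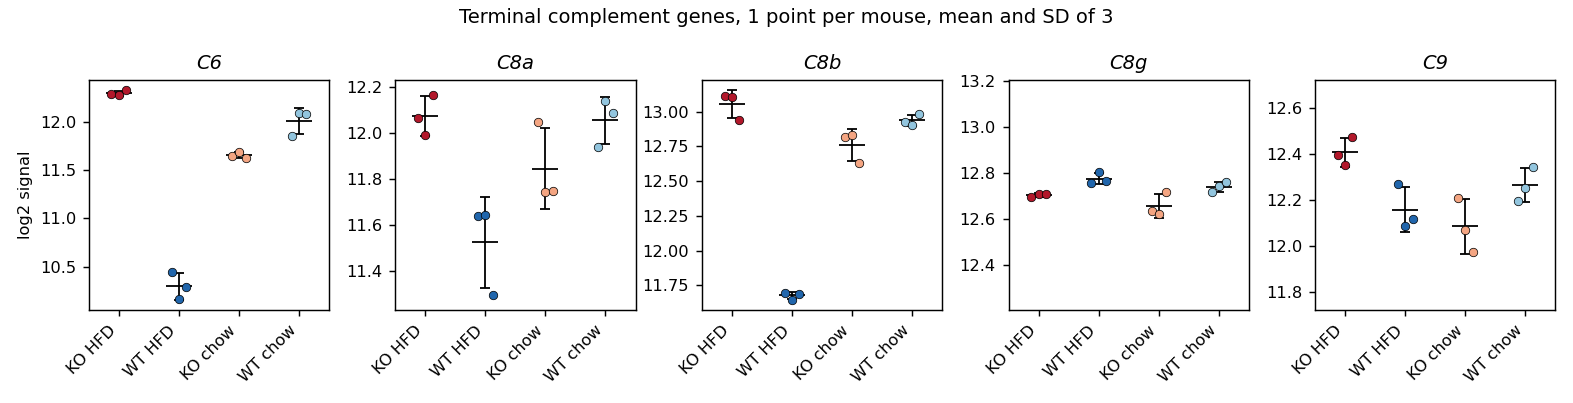
Log2 signal of C6, C8a, C8b, C8g and C9 in each mouse (points), with the mean and SD of the 3 mice per group (bars), in the order KO HFD, WT HFD, KO chow, WT chow; the vertical scale differs between panels. The WT HFD points of C6, C8a and C8b lie below all others, at 10.16 to 10.44 for C6, while C8g spans 0.18.

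In the recognition and initiation group, 1 of the 7 measured genes was called between KO and WT mice on HFD. That share of 14.3% was near the 10.5% of all genes. Mbl2 encodes mannose-binding lectin C, 1 of the 2 mouse mannose-binding lectins. Its log2 signal was 8.54, 8.81 and 8.28 in KO HFD livers and 9.67, 9.70 and 9.86 in WT HFD livers. It was 9.27, 9.39 and 9.46 in KO chow livers and 9.07, 9.21 and 9.31 in WT chow livers. WT HFD was the highest group and KO HFD the lowest, and neither overlapped another group. Mbl2 fell in KO relative to WT mice on HFD, with a log2 difference of -1.20 ± 0.13 (adjusted p = 0.000156), which is 2.3-fold lower. The interaction was -1.38 ± 0.18 (adjusted p = 0.00155).

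The diet moved Mbl2 in opposite directions in the genotypes. In WT mice it rose on HFD (0.54 ± 0.13, adjusted p = 0.0232), and this call was lost on leaving out WT HFD 1, 2 or 3, WT chow 1 or WT chow 2 (adjusted p up to 0.0907). In KO mice it fell on HFD (-0.84 ± 0.13, adjusted p = 0.0176). That fall was not called with only the 6 arrays compared (adjusted p = 0.127), without KO chow 2 or KO chow 3 (up to 0.0946), or without the WT HFD group (0.0597). On chow the difference between KO and WT mice was 0.18, with a 95% interval of -0.10 to 0.46.

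Mbl1, the gene of mannose-binding lectin A, was not called. It was at 11.97, 11.75 and 11.85 in KO HFD livers and 11.70, 11.70 and 11.73 in WT HFD livers, and at 11.61, 11.42 and 11.47 in KO chow livers and 11.66, 11.85 and 11.76 in WT chow livers. Its KO minus WT difference was 0.15 ± 0.09 on HFD (adjusted p = 0.351) and -0.26 ± 0.09 on chow (adjusted p = 0.583). The interaction was 0.41 ± 0.13 (adjusted p = 0.108), and it was called with the trend and robust settings (adjusted p = 0.0276) and with only genes above the median signal (0.0383). Masp1, a protease that works with these lectins, differed by -0.12 ± 0.09 between KO and WT mice on HFD.

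The 3 chains of C1q, neighbours on chromosome 4, were not called in any comparison, where 0.00902% to 10.5% of all genes were. C1qb was at 11.40, 11.06 and 11.28 in KO HFD livers and 11.23, 11.43 and 11.57 in WT HFD livers, and these ranges overlapped. The KO minus WT differences on HFD were -0.17 ± 0.15 for C1qa, -0.16 ± 0.13 for C1qb and -0.06 ± 0.14 for C1qc. C2, which forms the C3 convertase with C4, was at 9.95, 10.14 and 9.75 in KO HFD livers and 10.24, 10.41 and 10.32 in KO chow livers. In WT mice it was at 9.93, 9.96 and 10.05 on HFD and 10.55, 10.27 and 10.31 on chow. All HFD arrays of C2 lay below all chow arrays in both genotypes, with differences of -0.38 ± 0.11 in KO mice (adjusted p = 0.304) and -0.39 ± 0.11 in WT mice (adjusted p = 0.0567). The difference in WT mice was called with the trend and robust settings (0.0208), with only genes above the median signal (0.0221), and without KO HFD 2 (0.0419) or KO HFD 3 (0.0394). The interaction for C2 was 0.02, with a 95% interval of -0.33 to 0.36.

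None of the alternative pathway genes and plasma regulators was called in any of the 5 comparisons, where 0.00902% to 10.5% of all genes were. Cfb, factor B, is the direct neighbour of C2 on chromosome 17 and spanned 0.21 over all 12 arrays. Cfp, properdin, differed by -0.17 ± 0.14 between KO and WT mice on HFD (adjusted p = 0.515). Cfi, the protease that inactivates C3b and C4b, was at 12.12, 12.06 and 12.08 in KO HFD livers and 12.43, 12.34 and 12.22 in WT HFD livers. The groups did not overlap, and the difference of -0.24 ± 0.08 had an adjusted p of 0.0842. It was called with the trend and robust settings (adjusted p = 0.0152), with median centring (0.0321) and with only genes above the median signal (0.0279). C4bp, which helps Cfi to cut C4b, differed by -0.27 ± 0.11 (adjusted p = 0.157). In WT mice C4bp was at 12.52, 12.49 and 12.44 on HFD and 12.05, 12.15 and 12.17 on chow. These arrays did not overlap, and the difference was 0.36 ± 0.11 (adjusted p = 0.077). It was called with the trend and robust settings (0.0228), with median centring (0.043), with only genes above the median signal (0.031) and without KO HFD 2 (0.0184).

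The receptors for the small complement fragments were not called between KO and WT mice on HFD, but C5ar1 was called across diets. C5ar1, the C5a receptor of myeloid cells, was at 6.30, 5.88 and 6.08 in KO HFD livers and 6.29, 6.47 and 6.81 in WT HFD livers. It was at 6.06, 6.36 and 6.09 in KO chow livers and 5.70, 5.68 and 5.81 in WT chow livers. The WT chow arrays were the lowest, and KO HFD and WT HFD overlapped at 6.29 and 6.30. The mean of C5ar1 over the 12 arrays, 6.13, was the lowest of the 34 genes. Its WT chow values lay close to 5.6, the 95th percentile of 1282 olfactory and vomeronasal receptor genes. The diet difference in WT mice and the interaction both use these dim values. C5ar1 rose on HFD in WT mice (0.80 ± 0.14, adjusted p = 0.00568), while the difference in KO mice was -0.08 ± 0.14 (adjusted p = 0.92). The interaction was -0.88 ± 0.20 (adjusted p = 0.0335). It was called without KO HFD 1, WT HFD 1 or KO chow 1 and not called without any of the other 9 arrays (adjusted p up to 0.0842).

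Between KO and WT mice on HFD the C5ar1 difference was -0.44 ± 0.14 (adjusted p = 0.0734). It was called after quantile normalization (0.0464), after median centring (0.0385), without KO HFD 1 (0.0464) or without WT HFD 1 (0.0456). C3ar1, the C3a receptor, was at 7.02, 7.07 and 6.90 in KO HFD livers and 6.91, 7.26 and 7.27 in WT HFD livers, and at 6.87, 6.67 and 6.50 in KO chow livers and 6.75, 6.56 and 6.84 in WT chow livers. Its HFD minus chow difference was 0.32 ± 0.13 in KO mice (adjusted p = 0.513) and 0.43 ± 0.13 in WT mice (adjusted p = 0.0635). The difference in WT mice was called with the trend and robust settings (0.0419), with median centring (0.0494), with only genes above the median signal (0.027) and without WT HFD 1 (0.033).

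Both receptors and the C1q chains are made by macrophages, and the markers of recruited macrophages stood apart in WT HFD. Of the 7 measured markers of recruited macrophages, 5 were called lower in KO than in WT mice on HFD (71.4%, against 6.62% of all genes). The differences of the 7 ran from -1.73 to 0.34, with a median of -0.79. They did not all go the same way: for 1 marker all KO arrays lay above the WT arrays on HFD. In WT mice 6 were higher and 1 lower on HFD than on chow, against 4.02% higher and 2.94% lower among all genes. Mmp12, a macrophage elastase at the low end of the KO minus WT differences, was at 5.91, 6.09 and 5.96 in KO HFD livers. It was at 8.03, 7.66 and 7.46 in WT HFD livers. The 12 markers of Kupffer cells and macrophages had mean signals of 8.73 to 8.99 in KO HFD, 9.0 to 9.33 in WT HFD, 8.78 to 9.08 in KO chow and 8.72 to 8.97 in WT chow livers. Of these 12, 1 was lower in KO than in WT mice on HFD (Mpeg1, -0.96 ± 0.13). That share of 8.33% was near the 10.5% called and 6.62% lower among all genes. The 7 neutrophil markers had means of 4.44 to 4.74 over all arrays, below 5.6, the 95th percentile of 1282 olfactory and vomeronasal receptor genes, and none was called between KO and WT mice on HFD. The part of macrophage content in the values of C1q, C3ar1 and C5ar1 was not tested.

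**Figure D3:**
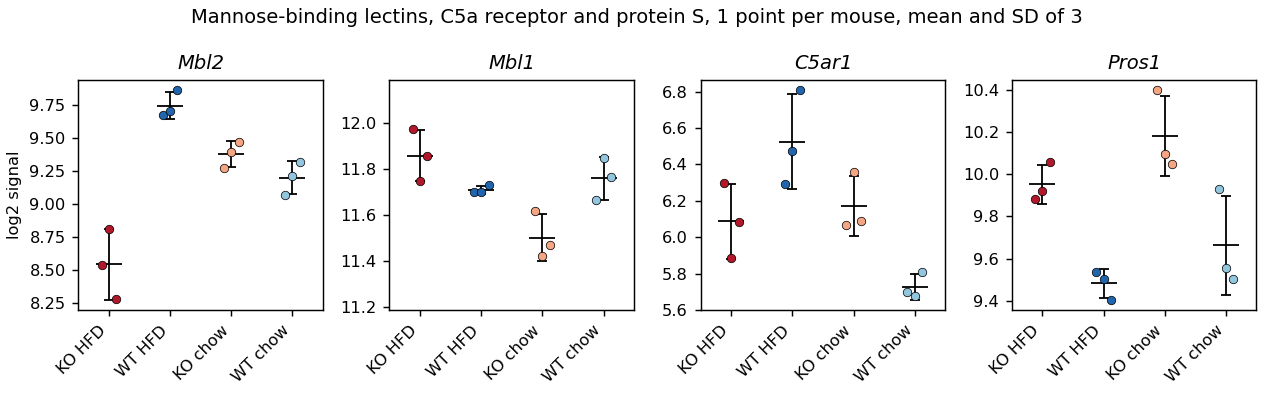
Log2 signal of Mbl2, Mbl1, C5ar1 and Pros1 in each mouse (points), with the mean and SD of the 3 mice per group (bars), in the order KO HFD, WT HFD, KO chow, WT chow; the vertical scale differs between panels. Mbl2 is lowest in KO HFD (8.28 to 8.81) and highest in WT HFD (9.67 to 9.86), and Pros1 is higher in KO than in WT mice on both diets.

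Of the clotting proteases and their cofactors, 9 of 10 listed were measured and none was called in any of the 5 comparisons. Among all genes 0.00902% to 10.5% were called, depending on the comparison, so none of 9 is near the background. Between KO and WT mice on HFD their differences ran from -0.13 for F9 to 0.09 for F11, with a median of -0.03. F2, prothrombin, was at 13.13, 13.13 and 13.11 in KO HFD livers and 13.24, 13.20 and 13.17 in WT HFD livers, and spanned 0.13 over the 12 arrays. F7, the protease that tissue factor activates, was at 10.37, 10.40 and 9.98 in KO HFD livers and 10.47, 10.73 and 10.66 in KO chow livers. These did not overlap, and the difference of -0.37 ± 0.12 had an adjusted p of 0.386. F10, which lies beside F7 and Proz on chromosome 8, differed by -0.20 ± 0.09 between HFD and chow in KO mice and by the same in WT mice, with adjusted p of 0.565 and 0.215.

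None of the fibrinogen chains or plasminogen was called in any of the 5 comparisons, where 0.00902% to 10.5% of all genes were. Fgb, the beta chain, was at 13.48, 13.47 and 13.48 in KO HFD livers and 13.46, 13.45 and 13.48 in WT HFD livers. Its range over the 12 arrays was 0.11, the smallest of the 34 genes. Fgg and Plg spanned 0.13 and 0.14, and Fga 0.28. The KO minus WT differences on HFD were -0.12 ± 0.08 for Fga, 0.02 ± 0.07 for Fgb and 0.04 ± 0.07 for Fgg. The 95% interval for Fgb was -0.13 to 0.16. These 3 genes lie side by side on chromosome 3.

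Of the anticoagulant genes, Pros1 was called on HFD and Proc and Proz were not. Pros1 encodes protein S, the cofactor of activated protein C, which circulates in part bound to C4b-binding protein. Its log2 signal was 9.88, 9.92 and 10.06 in KO HFD livers and 9.54, 9.50 and 9.40 in WT HFD livers. It was 10.40, 10.10 and 10.05 in KO chow livers and 9.93, 9.56 and 9.50 in WT chow livers. All KO arrays lay above all WT arrays on each diet. The difference was 0.47 ± 0.13 on HFD (adjusted p = 0.0324), which is 1.39-fold, and 0.52 ± 0.13 on chow (adjusted p = 0.342). The interaction was -0.05, with a 95% interval of -0.43 to 0.34. Median centring ended the HFD call (adjusted p = 0.0709), as did leaving out any 1 of the 6 HFD arrays (up to 0.106). Proc differed by -0.07 ± 0.07 and Proz, the cofactor of the protein Z inhibitor, by -0.16 ± 0.07 on HFD.

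Across diets, 5 of the 34 genes were called in WT mice (14.7%, against 6.96% of all genes) and 2 in KO mice (5.88%, against 0.243%). The counts over all genes moved with single arrays, from 815 to 1691 of 22180 in WT mice and from 28 to 79 in KO mice when each array was left out. The WT calls were Mbl2 and C5ar1, higher on HFD (4.02% of all genes), and C6, C8a and C8b, lower (2.94%). The KO calls were C6, higher on HFD (0.0857% of all genes), and Mbl2, lower (0.158%). The HFD and chow arrays did not overlap for 10 of the 34 genes in WT mice, against 26.4% of all genes, and for 15 of the 34 in KO mice, against 13.8%. So C6 and Mbl2 were called in both genotypes with opposite signs. The order of the group means over the 34 genes was mixed: WT HFD was the highest group for 15 genes and the lowest for 7, and KO HFD was the highest for 5 and the lowest for 16.

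**Figure D4:**
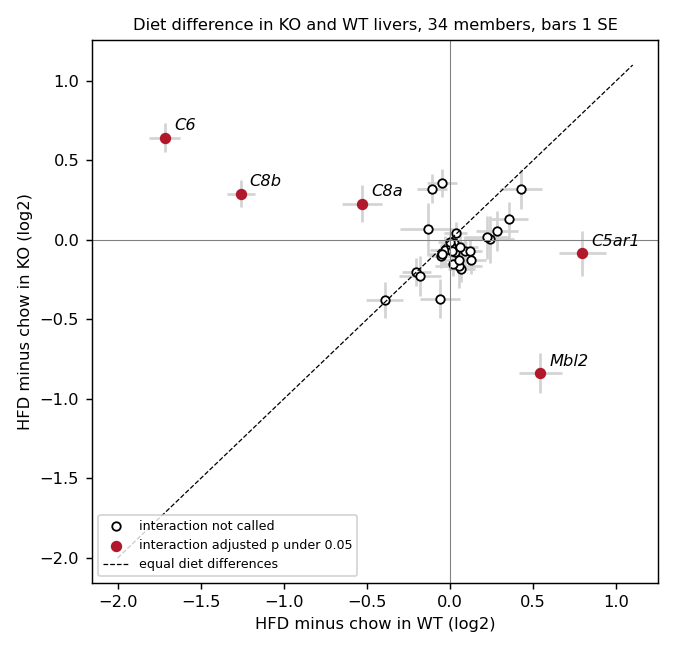
HFD minus chow difference in KO mice against that in WT mice for the 34 genes, on log2 scales; bars are 1 SE and filled points have a called interaction. C6 (0.64 in KO, -1.72 in WT) and Mbl2 (-0.84 in KO, 0.54 in WT) lie in opposite quadrants, while C2 (-0.38 in KO, -0.39 in WT) lies near the line of equal values.

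The spread between arrays was small for most of the 34 genes. The range over the 12 arrays was under 0.5 for 17 genes and over 1 for 4 (C6, Mbl2, C8b and C5ar1), with a median of 0.48, against 0.57 for all genes. The median within-group SD was 0.09, against 0.15 for all genes. The mean signal was over 11 for 24 of the 34 genes and over 13 for 4, near the top of the array's scale of 1.4 to 14.36.

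The wider pathway was read from a list of 56 other complement, clotting and fibrinolysis genes, of which 50 were measured. Between KO and WT mice on HFD, 0 of the 50 were higher and 6 were lower, 12.0% in all, which is near the 10.5% of all genes called (6.62% lower). On chow, 0 were called by limma, against 0.00902% of all genes. In WT mice, 7 were higher on HFD than on chow (14%) and 0 were lower, against 4.02% higher and 2.94% lower among all genes. In KO mice 0 were called, against 0.243% of all genes. The interaction was called for 1 of the 50 (2.0%), against 3.53% of all genes. None of the 6 lower genes is a plasma clotting factor or a component of the pore.

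Thbd encodes thrombomodulin, the endothelial receptor that turns thrombin toward protein C. It was at 7.0, 6.79 and 7.21 in KO HFD livers and 7.84, 7.74 and 7.84 in WT HFD livers, and at 6.95, 7.35 and 7.71 in KO chow livers and 6.75, 7.30 and 6.97 in WT chow livers. The WT HFD arrays were the highest of the 12. Thbd fell in KO relative to WT mice on HFD (-0.80 ± 0.18, adjusted p = 0.0156), a call lost without KO HFD 2, WT HFD 1 or WT HFD 3 (up to 0.0668). Its interaction was -1.13 ± 0.26 (adjusted p = 0.0352) and was lost without all but KO HFD 3, KO chow 1 and WT chow 2 (up to 0.0847).

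Plau, urokinase, which makes plasmin from plasminogen, was at 6.27, 6.18 and 6.13 in KO HFD livers and 6.79, 6.93 and 6.76 in WT HFD livers. It fell in KO relative to WT mice on HFD (-0.63 ± 0.15, adjusted p = 0.017), a call lost without KO HFD 2, KO HFD 3 or WT HFD 2 (up to 0.0654). Cd59b, one of the mouse copies of the inhibitor that blocks C9 insertion, was at 7.54, 7.36 and 7.42 in KO HFD livers and 8.31, 8.14 and 8.06 in WT HFD livers. Its difference was -0.73 ± 0.12 (adjusted p = 0.00214), and it was called without each of the 12 arrays in turn.

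Itgb2, the beta chain of complement receptors on leukocytes, was at 7.91, 7.58 and 7.79 in KO HFD livers and 8.31, 8.18 and 8.25 in WT HFD livers (-0.49 ± 0.11, adjusted p = 0.0124). That call was lost without KO HFD 2 (0.0537) or WT HFD 1 (0.05). C4b differed by -0.38 ± 0.10 (adjusted p = 0.0272), and its near-identical copy C4a by -1.15 ± 0.34 (adjusted p = 0.0511), so which copy gave the signal is uncertain. Tfpi2, an inhibitor of plasmin and of tissue factor with factor VIIa, differed by -0.33 ± 0.09 (adjusted p = 0.0318). The calls of C4b and Tfpi2 were lost with only the 6 arrays compared (0.0572 and 0.0926). The C4b call was also lost without KO HFD 2, KO HFD 3 or any WT HFD array (up to 0.106), and the Tfpi2 call without KO HFD 1, KO HFD 2 or any WT HFD array (up to 0.115).

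In WT mice on HFD against chow, the 7 called genes were Itgb2 (0.58), Plau (0.72), Cd59b (0.53), Itgax (0.58), Thbd (0.80), Cd59a (0.40) and Plaur (0.46), the last being the urokinase receptor. Itgb2 held its call without each of the 12 arrays. The call of Plau was lost without WT HFD 2 or WT chow 3 (adjusted p up to 0.0567), that of Itgax without WT HFD 1 or WT chow 3 (up to 0.0756), and that of Cd59b without WT HFD 1, WT HFD 2 or WT chow 1 (up to 0.0767). The calls of Thbd (up to 0.0856) and Cd59a (up to 0.101) were lost without WT chow 1, WT chow 3 or any WT HFD array. That of Plaur was lost without 9 of the 12 arrays, all but KO chow 1, KO chow 2 and WT chow 2 (up to 0.15). With only the 6 arrays compared, Cd59b (0.0556), Itgax (0.0807), Cd59a (0.0626) and Plaur (0.0603) were not called. Cd59a was also not called with the replicate block, nor Plaur with array weights. Itgax and Vsig4 also stood among the macrophage markers. The mean of Itgax in WT chow livers was 5.40, below 5.6, the 95th percentile of the olfactory and vomeronasal receptor genes.

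**Figure D5:**
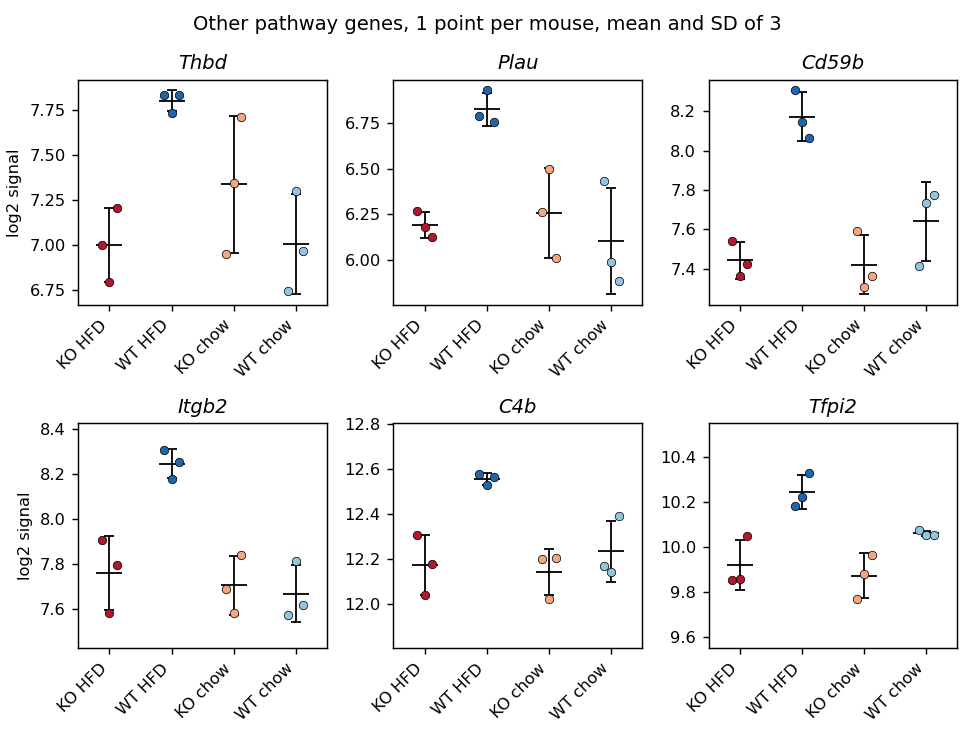
Log2 signal of Thbd, Plau, Cd59b, Itgb2, C4b and Tfpi2 in each mouse (points), with the mean and SD of the 3 mice per group (bars), in the order KO HFD, WT HFD, KO chow, WT chow; the vertical scale differs between panels. In all 6 panels the WT HFD points lie above the KO HFD points.

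Regulators of hepatic complement and clotting genes were read from a list of 12, of which 11 were measured. Between KO and WT mice on HFD 1 of the 11 was called (9.09%, against 10.5% of all genes), a share near the background. It was Il6ra, the receptor chain that binds interleukin-6. Il6ra was at 9.52, 8.94 and 10.18 in KO HFD livers and 10.75, 10.72 and 10.47 in WT HFD livers, and averaged 10.21 ± 0.18 in KO chow livers and 9.77 ± 0.21 in WT chow livers (SD, n = 3 each). KO HFD lay below WT HFD, and its own arrays spanned 8.94 to 10.18. Il6ra fell in KO relative to WT mice on HFD (-1.10 ± 0.24, adjusted p = 0.0118) and was called without each array in turn.

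In WT mice Il6ra rose on HFD (0.87 ± 0.24, adjusted p = 0.0492). Leaving out any array but KO HFD 2 and KO HFD 3 ended that call (up to 0.155), as did the trend and robust settings (0.0643) and the replicate block. Its interaction was -1.53 ± 0.34 (adjusted p = 0.0294), lost without KO HFD 1, WT HFD 1 or 2, KO chow 2 or 3, or WT chow 1 or 3 (up to 0.0731). None of the other 10 regulators was called between KO and WT mice on HFD. Hnf4a and Cebpa, liver transcription factors, differed by 0.01 ± 0.09 and 0.05 ± 0.12. Stat3, which carries the interleukin-6 signal, differed by -0.12 ± 0.09, and Cebpb, an acute-phase factor, by -0.32 ± 0.13 (adjusted p = 0.16).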

How the data were processed

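Total RNA from 12 mouse livers was measured on whole-transcript arrays, 1 mouse per array. The authors deposited log2 values for 41345 probe sets, and the submitters' processing notes name oligo. Its version and settings are not given in the sources used, so how background and scaling were set is unknown. Array medians ran from 5.58 to 5.70, values from 1.4 to 14.36 with 0 missing, and arrays of 1 group correlated at 0.992 to 0.994 across genes. The values were used as deposited.

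The array annotation, with symbols updated by gene number to RefSeq, gave 23521 probe sets with 1 symbol (193 not matched by gene number), 1814 with several and 16010 unnamed here. The probe set with the highest mean stood for each of 22180 genes. The 4 group means were fitted to all 12 arrays with limma 3.58.1 in R 4.3.3 (lmFit, eBayes), without a filter. P-values were adjusted by Benjamini-Hochberg within each of 5 comparisons and called at 0.05. Values after ± are SE of the fit unless called SD.

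All listed genes could be named, as could the 6 genes with the smallest p of the wider list, regulators and markers. The members, lists and alternatives were chosen with earlier results of these data known, and the clock genes because of those results.

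The fit was tested on simulated data of 22180 genes in the same 4 groups. In KO HFD only, 67 genes were changed by 0.5, 67 by 1 and 66 by 2. Between KO HFD and WT HFD the fit recovered 34.3% of genes changed by 0.5, 89.6% at 1 and 100% at 2, and called 8 of 21980 unchanged genes. In the data 10.5% of all genes were called in this comparison, so the adjusted p works at another cutoff. The recovery in the data was not measured. The alternatives were quantile normalization, median centring, the replicate number as a block, array weights, eBayes with trend and robust settings, a fit of only the arrays compared, the mean over a gene's probe sets, a minimum change of 2-fold, dropping genes under the median signal, leaving out each array, and, added after seeing the data, leaving out the WT HFD group.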

Additional observations from a re-analysis of the deposited data

Results flagged for a closer look

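For 7 genes the difference between KO and WT mice on HFD was not the same as on chow, by limma's interaction test across all genes. They were 5 of the 34 genes (14.7%), 1 of the 50 measured in the wider list (2.0%) and 1 of the 11 measured regulators (9.09%). Among all genes the share was 3.53%. The interaction, in log2 units, was 2.36 for C6, 1.55 for C8b and 0.76 for C8a, all positive. It was -1.38 for Mbl2, -0.88 for C5ar1, -1.13 for Thbd and -1.53 for Il6ra. For C6, C8b and Mbl2 the call held without each of the 12 arrays in turn. For the other 4 it was lost without 7 (C8a, Il6ra) or 9 (C5ar1, Thbd) of the arrays.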

How the results depend on the processing

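Between KO and WT mice on HFD, 5 of the 34 genes were called, 3 where a change of at least 2-fold was asked (C6, C8b and Mbl2) and 4 to 5 without each array in turn. On chow the count was 0 under every alternative run, left-out arrays included (0 to 0). For HFD against chow in WT mice the count was 5, 8 with the trend and robust settings, 2 at 2-fold and 3 to 7 without each array. For HFD against chow in KO mice it was 2, 0 with only the arrays compared, 0 at 2-fold, 1 without the WT HFD group (chosen after seeing the data) and 0 to 2 without each array (0 without KO chow 2 or KO chow 3). The interaction was called for 5 genes, 3 with the replicate block, 3 at 2-fold and 3 to 5 without each array. The mice share only a replicate number: deviations of same-numbered mice in different groups correlated at -0.06 to 0.08, with 0 of 18 pairs over 0.1. The block moved no other of these counts by over 1.5 times, and under it C8a (adjusted p = 0.0539) and C5ar1 (0.0591) missed the interaction call. No called value changed sign under these alternatives. Over all genes, median centring changed the split of higher and lower calls between KO and WT mice on HFD to 545 and 1937, against 862 and 1469, that for HFD against chow in WT mice to 1089 and 457, against 891 and 652, and that of the interaction to 221 and 623, against 318 and 465. Leaving out 1 array moved the count over all genes from 2331 to as few as 1506 between KO and WT mice on HFD (WT HFD 3), from 2 to between 0 and 5 on chow, from 1543 to as few as 815 for diet in WT mice (WT chow 3, and 860 to 935 without a WT HFD array), from 54 to as few as 28 for diet in KO mice (KO chow 2, and 35 without KO chow 3) and from 783 to as few as 432 for the interaction (KO chow 2, and 434 to 489 without KO chow 3, KO HFD 2, WT HFD 2, WT HFD 3 or WT chow 3). The causes were not tested. With 3 mice per group, differences near 0.5 were mostly missed in the simulation. Far fewer genes were changed there than were called here between KO and WT mice on HFD. The simulated noise was set from all genes, whose median within-group SD was 0.15, against 0.09 for the 34 genes. For both reasons the share missed may differ in the data and for these genes.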
